A study of Mus musculus with 6 samples.

Results

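The enzymes of the tricarboxylic acid (TCA) cycle were examined as 9 genes given by symbol: Cs, Idh3a, Idh3b, Idh3g, Ogdh, Suclg1, Sucla2, Fh1 and Mdh2. They were 9 of the 24589 genes listed in a bulk RNA-seq table of mouse primary CD8+ T cells. They were chosen as enzymes of the cycle, with earlier results of these data known, and 7 further genes of the cycle are given below. The cells were of WT genotype, were stimulated through CD3 and CD28, and then received either 20 µM TVA (trans-vaccenic acid, a trans fatty acid found in the fat of ruminants) or its solvent DMSO for 24 h. Activation was therefore common to both groups. In the study, magnetic beads were used to purify such cells from C57BL/6 spleens and peripheral lymph nodes. Each group held 3 libraries, numbered 1 to 3, and the labels do not say whether these came from separate animals or cultures, so p-values measure only the spread between these samples, which may be technical. The comparison asks which transcripts differ when TVA is present.

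The TCA cycle runs in the mitochondrial matrix, where acetyl-CoA joins oxaloacetate and is oxidized stepwise to carbon dioxide, passing electrons to NADH and to the succinate dehydrogenase of the respiratory chain. Activated T cells use the cycle both for energy and as a source of citrate, aspartate and other precursors for growth, and its acetyl-CoA, 2-oxoglutarate, succinate and fumarate also feed or inhibit enzymes that modify chromatin. All of its enzymes are encoded in the nucleus and imported into mitochondria.

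The values were TPM (transcript abundance per unit of length and library), so levels of different genes can be set beside each other, but the read depth behind them is unknown and no counting interval can be given. In bulk samples, fewer cells of a type and less RNA per cell cannot be told apart. Of the CD8 T cell markers, 5 of 6 were listed (Cd8a, Cd8b1, Cd3d, Cd3e and Cd3g). Their summed TPM was 1516 to 1638 with DMSO and 1756 to 1787 with TVA. In 4 of the 5 all TVA values were above all DMSO values, a pattern found in 27.3% of genes tested, while Cd8b1 overlapped between groups. Cd3g was called higher (adjusted p = 0.0063, limma), and 8.51% of genes tested were called in either direction. Of 2 CD4 T cell markers, Cd4 was at 3.80 to 4.46 TPM with DMSO and 3.33 to 3.64 TPM with TVA, without overlap. The other, Foxp3, overlapped, at 0.53 to 0.81 TPM with DMSO and 0.62 to 0.89 TPM with TVA. Their summed TPM also overlapped, at 4.33 to 5.27 with DMSO and 4.09 to 4.51 with TVA. The summed TPM of 4 B cell markers was 1.32 to 1.63 with DMSO and 1.34 to 1.65 with TVA. The summed TPM of 5 myeloid markers was 34.1 to 36.7 with DMSO and 45.7 to 48.3 with TVA. For each of the 5 the lowest TVA value was above the highest DMSO value, a pattern found in 27.3% of genes tested. Of the 5, 4 passed the low-value filter and also an unadjusted p under 0.05, as did 31.8% of genes tested. Among them, Lyz2 was called higher. Csf1r met the filter only through its TVA values (1.00 to 1.28 TPM, beside 0.64 to 0.82 TPM with DMSO), so the filter favoured its low p. The macrophage marker Adgre1 was at 0.26 to 0.50 TPM with DMSO and 0.57 to 0.89 TPM with TVA. Of 2 platelet markers Itga2b was called lower with TVA (adjusted p = 0.0307). The part of these other cells in the values of the cycle enzymes was not tested.

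None of the 9 cycle enzymes passed the test across all genes. The fitted folds of TVA over DMSO lay between 0.937 for Suclg1 and 1.11 for Ogdh, and their 95% intervals all fell within 0.882 to 1.20. All 9 passed the low-value filter (at least 1 TPM in at least 3 libraries), and with limma and Benjamini-Hochberg adjustment over the 10866 genes tested their adjusted p ranged from 0.107 to 0.936. Among all genes tested, 8.51% were called at an adjusted p under 0.05 (574 higher and 351 lower with TVA). With median-of-ratios scaling between libraries, only 35.4% of the called genes were higher, against 62.1% without it. At an unadjusted p under 0.05, 3 of the 9 enzymes passed (Cs and Ogdh higher, Suclg1 lower), beside 31.8% of all genes tested. For 4 of the 9 the values of the groups were fully separate, beside 38.6% of all genes tested. In 3 of them (Cs, Ogdh and Sucla2) every TVA value was above every DMSO value, a pattern seen in 27.3% of genes tested, and in 1 (Suclg1) every TVA value was below, as in 11.2% of genes tested. The shares of the 9 enzymes in these counts were near those of all genes.

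The fitted change on the log2(TPM + 1) scale was above 0 for 6 of the 9, although those of Idh3b and Mdh2 turned below 0 with median-of-ratios scaling. The median change was 0.03, beside 0.04 for all genes tested, and the median absolute change was 0.08, beside 0.10. The enzymes varied little between libraries of a group. Their median residual SD was 0.043 on the log2(TPM + 1) scale, beside 0.071 for all genes tested. The median distance from a fitted change to the end of its 95% interval was 0.09. The enzymes averaged 50.8 to 541 TPM and the genes tested include far lower ones, so these comparisons are not matched for level. The summed TPM of the 9 was 1440, 1458 and 1385 in DMSO libraries 1, 2 and 3 and 1458, 1464 and 1457 in TVA libraries 1, 2 and 3, so the DMSO 3 library gave the lowest total.

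**Figure D1:**
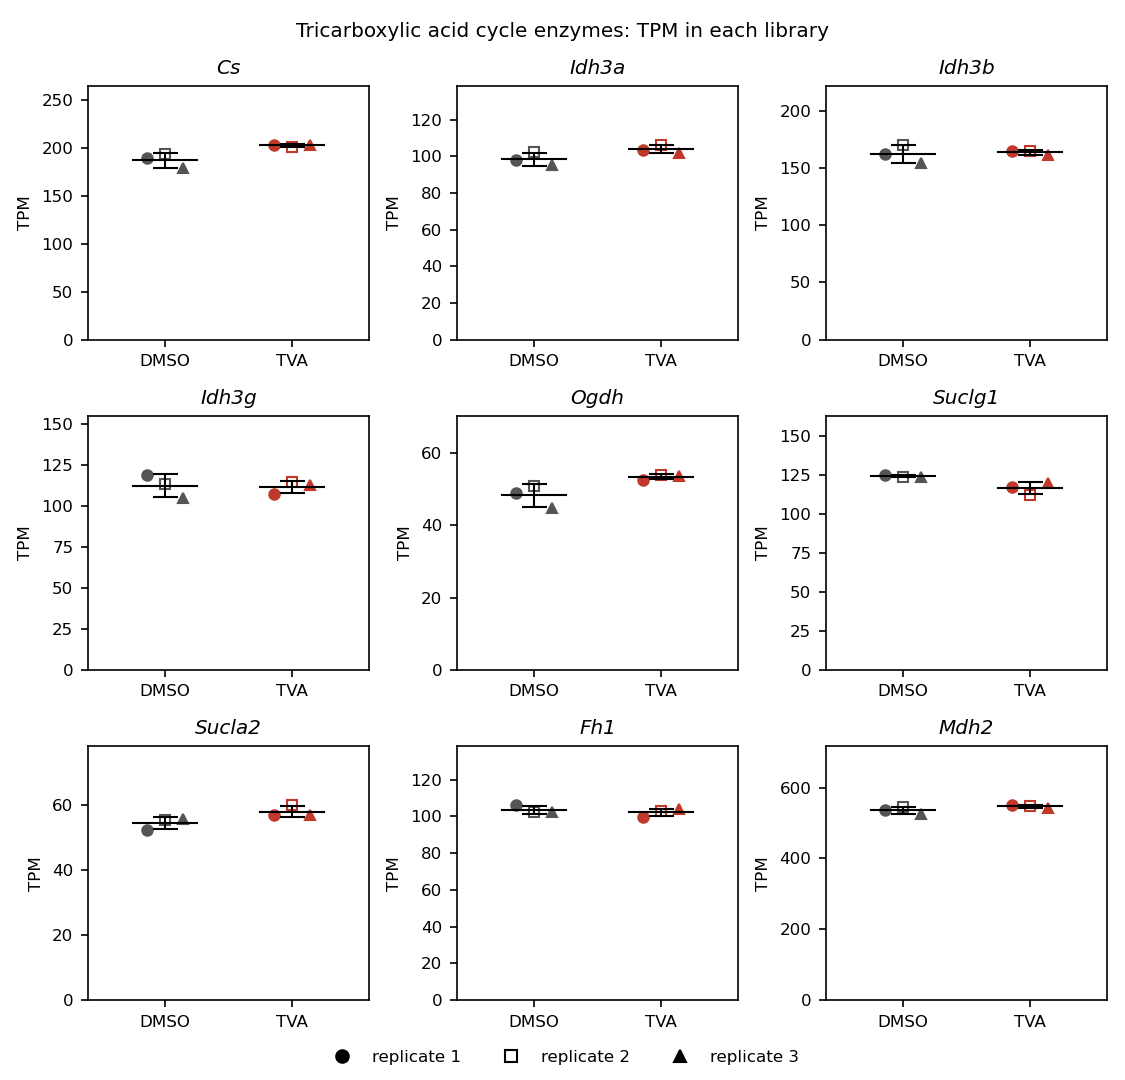
TPM (vertical axes, from 0) of each of the 9 cycle enzymes in the DMSO and TVA libraries. Points are libraries, with the marker shape giving the replicate number, long lines are group means and error bars are the SD (n = 3). The groups separate for Cs, Ogdh, Sucla2 and Suclg1, and every enzyme stays close to its own level.

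Citrate synthase, encoded by Cs (build GRCm38, the assembly of mm10, chr10:128337734-128362479, plus strand), condenses acetyl-CoA with oxaloacetate and so admits carbon to the cycle. Cs was at 189, 194 and 178 TPM in DMSO libraries 1 to 3 and at 203, 201 and 203 TPM in TVA libraries 1 to 3. All TVA values were above all DMSO values, and the TVA libraries lay closer together (202 ± 1.14, SD, n = 3) than the DMSO libraries (187 ± 7.85, SD, n = 3). The fitted log2 change was 0.11 with an SE of 0.040, or 1.08-fold (95% interval 1.01 to 1.15), with an adjusted p of 0.107 in limma. Cs passed the threshold only when DMSO replicate 2 was left out, with a log2 change of 0.14 and an adjusted p of 0.0443.

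Isocitrate dehydrogenase 3 is the NAD-dependent enzyme of the cycle and a rate-controlling step, with Idh3a as its catalytic subunit and Idh3b and Idh3g as its structural and regulatory subunits. Idh3a (chr9:54586334-54604661, plus strand) was at 98.0, 102 and 95.2 TPM with DMSO and at 104, 106 and 102 TPM with TVA. The ranges overlapped in that the lowest TVA value was under the highest DMSO value. Its log2 change was 0.08 with an SE of 0.040 (95% interval -0.02 to 0.17, adjusted p = 0.221, limma). After correction for GC content the log2 change of Idh3a was 0.0036.

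Idh3b (chr2:130279309-130284547, minus strand) was at 163, 171 and 155 TPM with DMSO and at 165, 165 and 161 TPM with TVA, so the TVA values lay inside the DMSO range. Its log2 change was 0.01 with an SE of 0.044 (95% interval -0.09 to 0.11, adjusted p = 0.882, limma), and its sign turned with scaling and GC correction. Exons of Idh3b and of Nop56 on the opposite strand share 5 bases in the annotation, and no other of the 9 shares exon bases with another gene. Idh3g, on chromosome X (chrX:73778963-73786897, minus strand), was at 119, 114 and 105 TPM with DMSO and at 108, 115 and 113 TPM with TVA. Here too the TVA values lay inside the DMSO range. The log2 change of Idh3g was -0.01 with an SE of 0.054 (95% interval -0.13 to 0.12, adjusted p = 0.936, limma), the widest interval of the 9.

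Ogdh (chr11:6291633-6356642, plus strand) encodes the E1 subunit of the 2-oxoglutarate dehydrogenase complex, which decarboxylates 2-oxoglutarate and is a further control point of the cycle. It had the largest fitted change of the 9 enzymes and the lowest level. Its transcript was at 49.0, 50.9 and 44.9 TPM with DMSO and at 52.6, 54.0 and 53.5 TPM with TVA. The DMSO 3 library was the lowest and all TVA values were above all DMSO values. The log2 change was 0.14 with an SE of 0.051, or 1.11-fold (95% interval 1.02 to 1.20, adjusted p = 0.108, limma). Leaving out DMSO replicate 2 gave 0.18 with an adjusted p of 0.0392, and leaving out DMSO replicate 3 gave 0.09 with an adjusted p of 0.187. The GC-corrected change of Ogdh was 0.13 with an adjusted p of 0.0825.

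The succinyl-CoA ligase (succinyl-CoA synthetase) of the matrix makes ATP or GTP directly from succinyl-CoA. Its alpha subunit, encoded by Suclg1, pairs either with the ATP-forming beta subunit Sucla2 or with the GTP-forming beta subunit Suclg2. Suclg1 (chr6:73248382-73276911, plus strand) was at 125, 124 and 124 TPM with DMSO and at 118, 112 and 120 TPM with TVA. It was the only enzyme of the 9 whose TVA values were all below its DMSO values. The log2 change was -0.09 with an SE of 0.038, or 0.937-fold (95% interval 0.882 to 0.996, adjusted p = 0.139, limma), and after GC correction it was -0.13 with an adjusted p of 0.0538.

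Sucla2 (chr14:73525319-73596142, plus strand) was at 52.3, 55.4 and 55.8 TPM with DMSO and at 57.0, 60.1 and 57.2 TPM with TVA. Its values separated in the other direction from those of Suclg1, with all TVA libraries above all DMSO libraries. The log2 change of Sucla2 was 0.09 with an SE of 0.043 (95% interval -0.01 to 0.19, adjusted p = 0.192, limma). Sucla2 had the lowest transcript GC content of the 9 (41.3%, beside a median of 50.4% for genes tested), and after GC correction its log2 change was 0.00075. Across all genes tested, the log2 change fell with GC content (Spearman's rho = -0.401, across genes, which are not independent replicates).

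Fumarase, encoded by Fh1 (chr1:175600374-175625635, minus strand), hydrates fumarate to malate. Fh1 was at 106, 102 and 102 TPM with DMSO and at 99.8, 103 and 104 TPM with TVA, and the groups overlapped. The log2 change was -0.02 with an SE of 0.036 (95% interval -0.10 to 0.06, adjusted p = 0.728, limma). After GC correction the log2 change of Fh1 was -0.083 with an adjusted p of 0.128.

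Mitochondrial malate dehydrogenase, encoded by Mdh2 (chr5:135778480-135790398, plus strand), regenerates oxaloacetate and also serves the malate-aspartate shuttle. Mdh2 was at 538, 544 and 524 TPM with DMSO and at 551, 547 and 543 TPM with TVA, and 1 TVA value was under the highest DMSO value. It had by far the highest level of the 9 enzymes. The log2 change was 0.03 with an SE of 0.034 (95% interval -0.05 to 0.11, adjusted p = 0.559, limma), or 0.967-fold to 1.08-fold.

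**Figure D2:**
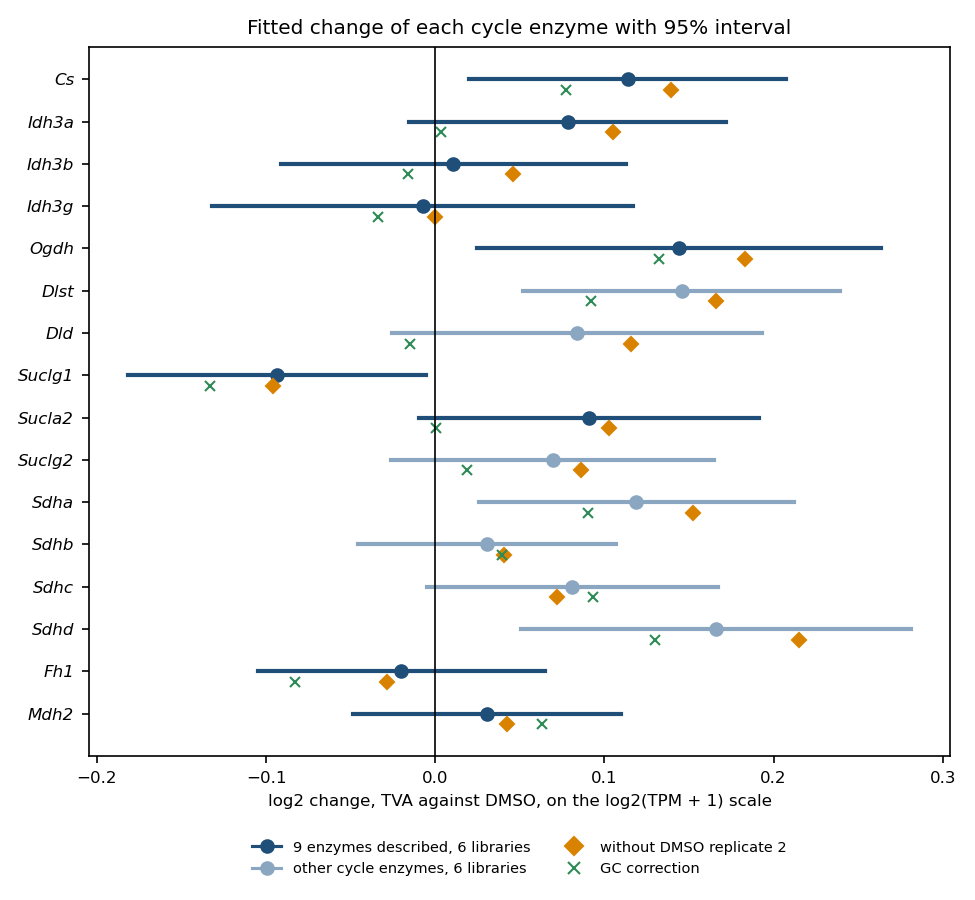
Fitted change of each cycle enzyme with TVA against DMSO on the log2(TPM + 1) scale (horizontal axis), with circles and lines for the estimate and its 95% interval from limma over 6 libraries. Dark symbols are the 9 enzymes described and pale symbols 7 others of the cycle, diamonds are estimates without DMSO replicate 2 and crosses are estimates after GC correction. Suclg1 is the only gene of the 16 whose whole interval lies below 0, and the estimates of Idh3a, Sucla2 and Dld lie near 0 after GC correction.

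By mean TPM over the 6 libraries the order was Mdh2, Cs, Idh3b, Suclg1, Idh3g, Fh1, Idh3a, Sucla2 and Ogdh. The ranges over libraries did not overlap between Mdh2 and Cs, between Cs and Idh3b, between Idh3b and Suclg1, or between Idh3a and Sucla2. They did overlap for the other neighbours, namely Suclg1 with Idh3g, Idh3g with Fh1, Fh1 with Idh3a and Sucla2 with Ogdh. Within libraries, Suclg1 was above Idh3g in 5 of 6, Idh3g above Fh1 in 6 of 6, Fh1 above Idh3a in 4 of 6 and Sucla2 above Ogdh in 6 of 6. TPM depends on the transcript models used for its length scaling, so the order between genes is less certain than a comparison of one gene between libraries.

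The balance between subunits of the same enzyme was compared as the ratio of their TPM within each library, for 4 ratios. The ratio of Suclg1 to Sucla2 was 2.40, 2.24 and 2.23 with DMSO and 2.06, 1.87 and 2.10 with TVA. All TVA ratios were below all DMSO ratios, with a log2 difference of -0.19, or 0.879-fold. In a two-sided exact permutation test p was 0.10, the smallest that 3 against 3 libraries allow, and 0.20 after Benjamini-Hochberg adjustment over the 4 ratios, so the design could not reach 0.05. The GC-corrected difference for Suclg1 over Sucla2 was -0.13, with the same exact p of 0.10.

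The ratio of Idh3a to Idh3b was 0.603, 0.599 and 0.616 with DMSO and 0.629, 0.643 and 0.632 with TVA, again without overlap (log2 difference 0.07, exact permutation p = 0.10, adjusted p = 0.20). The catalytic subunit was thus the less abundant transcript in every library. After GC correction the Idh3a to Idh3b difference was 0.02 with an exact p of 0.50. The ratio of Idh3a to Idh3g was 0.822, 0.899 and 0.906 with DMSO and 0.961, 0.925 and 0.901 with TVA, and these overlapped (log2 difference 0.09, exact permutation p = 0.20, adjusted p = 0.267). The ratio of the ATP-forming Sucla2 to the GTP-forming Suclg2 was 2.01, 2.01 and 2.05 with DMSO and 2.03, 2.14 and 1.99 with TVA. It stayed near 2 in every library (log2 difference 0.02, exact permutation p = 0.80), and the sign of the difference turned with GC correction.

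**Figure D3:**
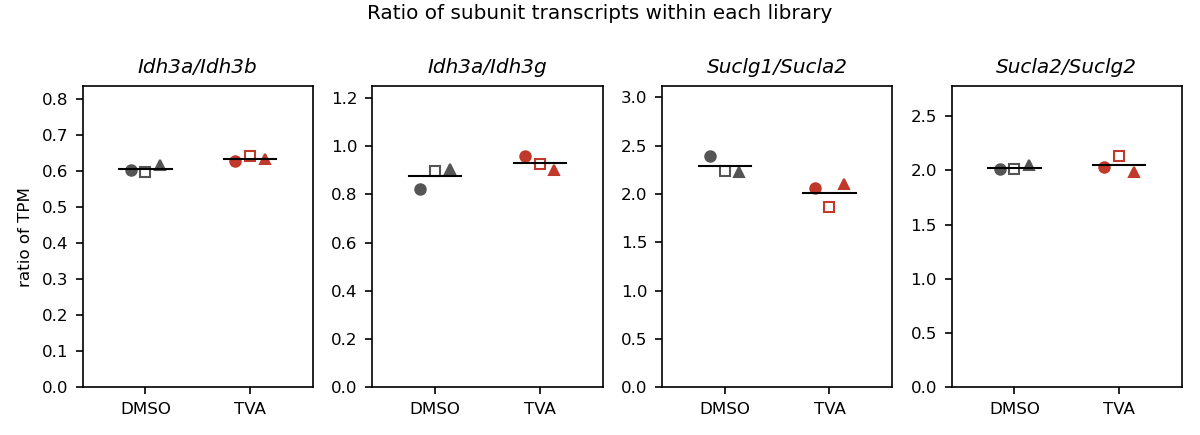
Ratio of TPM between subunits of isocitrate dehydrogenase 3 and of succinyl-CoA ligase within each library (vertical axes, from 0). Points are libraries, with circles, squares and triangles for replicates 1, 2 and 3, and lines are the group means. The Suclg1 to Sucla2 ratio is 2.23 to 2.40 with DMSO and 1.87 to 2.10 with TVA, while the Sucla2 to Suclg2 ratio overlaps between groups.

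A further 7 enzymes and subunits of the cycle gave the same count at the threshold. None was called with limma and 3 of the 7 passed an unadjusted p under 0.05, all higher with TVA, beside 31.8% of all genes tested in either direction. Their adjusted p ranged from 0.0618 to 0.545 and their median log2 change was 0.08. All 7 fitted changes were above 0, as were 6678 of the 10866 over all genes, although that of Sdhb turned below 0 with median-of-ratios scaling and that of Dld with GC correction. All TVA values were above all DMSO values for 6 of the 7, namely Dlst, Dld, Suclg2, Sdha, Sdhc and Sdhd, a pattern found in 27.3% of genes tested.

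Dlst, the succinyltransferase core of the 2-oxoglutarate dehydrogenase complex, was at 120, 121 and 112 TPM with DMSO and at 129, 131 and 130 TPM with TVA. Its fitted change was close to that of its partner subunit Ogdh, with a log2 value of 0.15 (SE 0.040, adjusted p = 0.0618, limma). Dld, the dihydrolipoamide dehydrogenase that this complex shares with pyruvate dehydrogenase, was at 108, 121 and 118 TPM with DMSO and at 122, 122 and 123 TPM with TVA (log2 change 0.08, adjusted p = 0.256). Dld had its lowest value in DMSO library 1, whereas Ogdh and Dlst had theirs in DMSO library 3. Without DMSO replicate 1 the log2 change of Dld was 0.037.

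Succinate dehydrogenase oxidizes succinate to fumarate and is also complex II of the respiratory chain, with Sdha and Sdhb as its catalytic subunits and Sdhc and Sdhd as its membrane anchors. Sdhd had the largest fitted change of the 16 cycle genes, at 233, 265 and 245 TPM with DMSO and at 276, 277 and 278 TPM with TVA (log2 change 0.17, adjusted p = 0.0733, limma). Its TVA values were nearly identical, and its DMSO values spread more widely. Sdha had a log2 change of 0.12 (adjusted p = 0.0954), Sdhc of 0.08 (0.177) and Sdhb of 0.03 (0.545). Suclg2 had a log2 change of 0.07 (adjusted p = 0.277).

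The libraries did not contribute evenly. DMSO library 3 was the lowest of the DMSO libraries for 8 of the 9 enzymes, all but Sucla2 having their DMSO minimum there, beside 41.1% of genes tested. It was the lowest of all 6 libraries for 6 of the 9, beside 29.7% of genes tested. DMSO library 2, in contrast, was the lowest of the DMSO libraries for none of the 9 and correlated with the TVA libraries (r = 0.9957 to 0.9964 over genes tested) more closely than with the other DMSO libraries (0.9929 and 0.9945). Without DMSO replicate 2 the number of genes called was 2242, or 20.6% of genes tested, and 2 of the 9 enzymes (Cs and Ogdh) and 3 of the further 7 (Dlst, Sdha and Sdhd) were among them, all higher with TVA. In each of the 5 other fits that left out 1 library, and with GC correction or other scaling, none of the 9 was called.

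**Figure D4:**
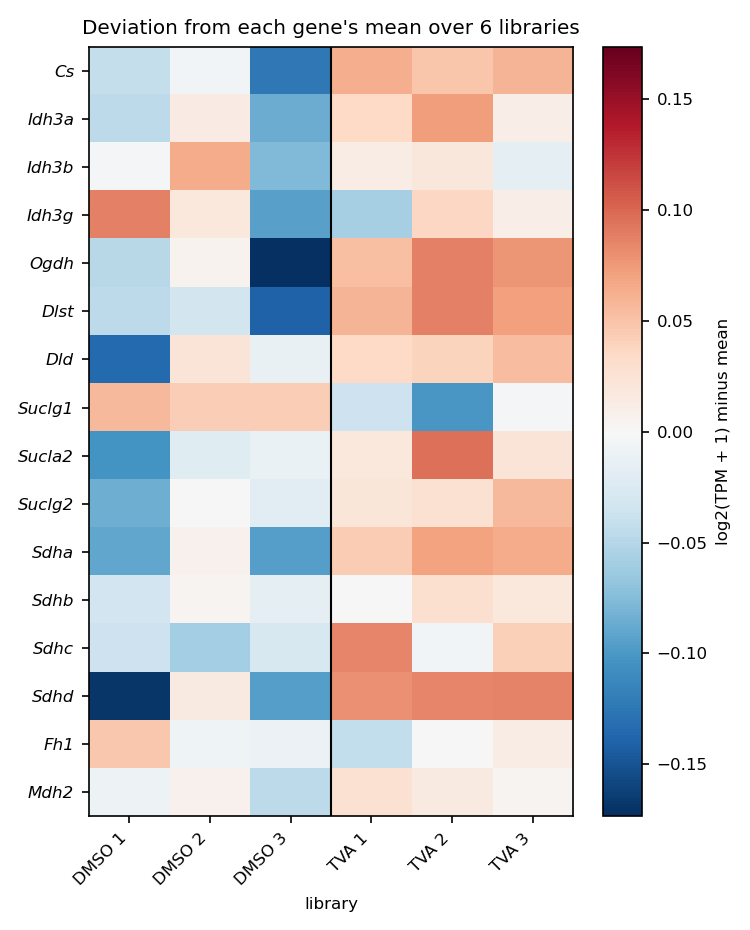
Deviation of log2(TPM + 1) in each library from the mean of that gene over 6 libraries (colour scale, blue below and red above the mean), for the 16 cycle genes in the order of the cycle. DMSO 3 is the darkest blue column for Cs, Ogdh and Dlst, the TVA columns are mostly red, and the Suclg1 row runs the other way.

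Over the 6 libraries the enzymes differed in how they followed each other. This is given as a description, because libraries share their group and the genes of a library share its depth, which is unknown. Pearson's r of an enzyme with the mean of the other 8 was 0.895 for Ogdh, 0.832 for Mdh2, 0.797 for Cs, 0.796 for Idh3a, 0.725 for Idh3b and 0.535 for Idh3g. It was 0.129 for Sucla2, -0.10 for Fh1 and -0.64 for Suclg1. The 5 genes most like the mean profile of the enzymes, among 7553 candidates averaging at least 10 TPM, were Fam234a (r = 0.993), Nploc4 (0.992), Uap1 (0.988), Alg3 (0.987) and Tut1 (0.985). The choice by r favours genes that share the low value of the profile in DMSO library 3, and each had its lowest value there. Fam234a, for example, was at 10.1, 10.6 and 8.47 TPM in the DMSO libraries and 10.6, 11.2 and 10.7 TPM in the TVA libraries.

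CREB, a transcription factor that binds the cAMP response element (CRE), is among the proteins the study examined, and the 250 bases before the RefSeq start of each gene were searched on both strands in RefSeq promoters (GRCm38.p6). Promoters matched for 8 of the 9 enzymes, all but Idh3a. The RefSeq starts differ from the gene spans given above, which come from GENCODE: 4 of the 8 windows lie before the span, those of Idh3b, Suclg1 and Mdh2 lie partly inside it, and that of Sucla2 lies wholly inside it. The full CRE, TGACGTCA, a palindrome, was present in 1.6% of the 27026 promoters scanned and in 2 of the 8, those of Ogdh and Mdh2. The Ogdh promoter is shown whole, because it holds the element directly followed by a further copy of its core, and 30 bases around the element are shown for Mdh2. The Ogdh sequence covers chr11:6291347-6291596 and the Mdh2 sequence chr5:135778511-135778540, both plus strand, and capitals mark the CRE and, in Ogdh, the core that follows it.
Ogdh promoter: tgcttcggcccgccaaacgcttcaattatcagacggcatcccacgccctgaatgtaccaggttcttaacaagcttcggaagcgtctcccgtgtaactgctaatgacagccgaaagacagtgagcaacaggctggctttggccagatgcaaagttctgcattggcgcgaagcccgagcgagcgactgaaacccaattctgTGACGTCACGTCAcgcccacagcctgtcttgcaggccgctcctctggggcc
Mdh2 CRE: ggagagaatcgTGACGTCAggcctcgctcg
The CRE begins 51 bases before the RefSeq start of Ogdh and 127 bases before that of Mdh2, where it lies within the GENCODE span. Ogdh and Mdh2, the lowest and the highest of the 9 in level, had log2 changes of 0.14 and 0.03, and neither passed the test.

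The shorter CRE core, TGACG or CGTCA on the other strand, which the full element contains, was in 17.8% of all promoters and in 5 of the 8 (Idh3b, Idh3g, Ogdh, Sucla2 and Mdh2), and not in the windows of Cs, Suclg1 and Fh1. Motifs of other regulators of nuclear genes for mitochondria were found in fewer of these windows. The ETS motif CCGGAAG, bound by GABP, was in 7.07% of all promoters and in 1 of the 8, Idh3g. The NRF1 core GCATGC (6.67% of all promoters), the ERR motif AAGGTCA (4.04%) and the E-box CACGTG (6.04%), which MYC binds, were in none of the 8 windows. A match in a window is a description of its letters and shows no binding.

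Of 7 related lists, with 48 genes tested, 1 gene was called with limma, beside 8.51% of all genes tested. Lonp1, a protease of the mitochondrial matrix that degrades misfolded and oxidized proteins, fell from 154, 133 and 135 TPM with DMSO to 119, 116 and 118 TPM with TVA. The groups did not overlap, and the log2 change was -0.25 with an SE of 0.058 (adjusted p = 0.0423). This call was lost without the mean-variance trend (0.0573), with all genes above 0 TPM (0.0751), with a replicate block (0.0608) and when DMSO replicate 3 (0.0717) or TVA replicate 1, 2 or 3 (0.117, 0.168 and 0.153) was left out. Among the 10 porins, import proteins and chaperones that included Lonp1, 5 passed an unadjusted p under 0.05, 3 higher and 2 lower. Of all genes tested, 31.8% passed it.

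Isozymes outside the cycle had 0 of 6 tested genes called and 1 at an unadjusted p under 0.05, beside 31.8% of genes tested. That gene was Mdh1, the cytosolic malate dehydrogenase, at 170, 187 and 169 TPM with DMSO and at 192, 194 and 194 TPM with TVA (log2 change 0.14, adjusted p = 0.0922). Idh1, the cytosolic NADP-dependent enzyme, was near 3 TPM, with a log2 change of 0.18 (adjusted p = 0.159). Enzymes that replenish or drain the cycle had 0 of 8 called and 0 at an unadjusted p under 0.05. Gls2, a glutaminase, had a log2 change of -0.16 (adjusted p = 0.245) and Pcx, pyruvate carboxylase, of -0.12 (0.445). On leaving out each library Gls2 ran from -0.20 to -0.07 and Pcx from -0.21 to -0.04.

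Carriers of the inner membrane had 0 of 6 tested genes called and 1 at an unadjusted p under 0.05, lower with TVA. That p was reached by 31.8% of all genes tested. The citrate carrier Slc25a1 was at 45.6, 38.2 and 42.0 TPM with DMSO and at 38.9, 36.4 and 36.3 TPM with TVA (log2 change -0.17, adjusted p = 0.137), and the dicarboxylate carrier Slc25a10 had a log2 change of 0.07 (0.43). With GC correction the log2 change was -0.04 for Slc25a1 and 0.19 for Slc25a10 (adjusted p = 0.549 and 0.0646), and without DMSO replicate 2 that of Slc25a1 was -0.23 and passed the threshold (0.0277). Assembly and lipoylation factors had 0 of 7 called and 3 at an unadjusted p under 0.05, 2 higher and 1 lower. Sdhaf1, which assembles the iron-sulfur subunit of succinate dehydrogenase, was not among these 3. It was at 72.4, 44.9 and 70.2 TPM with DMSO and at 45.6, 49.3 and 46.7 TPM with TVA. DMSO library 2 alone lay with the TVA libraries there, and without it the log2 change of Sdhaf1 went from -0.37 (adjusted p = 0.168) to -0.59 (0.00032). Sdhaf4 had a log2 change of 0.32 (adjusted p = 0.0654).

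Enzymes of side metabolites had 0 of 2 tested genes called and 0 at an unadjusted p under 0.05. D2hgdh, which oxidizes D-2-hydroxyglutarate, had a log2 change of 0.11 (adjusted p = 0.205), and Acod1, which makes itaconate, had -0.02 (0.871) at 5.83 to 7.30 TPM. Regulators had 0 of 9 tested genes called and 4 at an unadjusted p under 0.05, 1 higher and 3 lower. Of all genes tested, 31.8% passed that p in either direction. Myc, a driver of growth and metabolism in activated T cells, was at 336, 283 and 291 TPM with DMSO and at 267, 271 and 259 TPM with TVA (log2 change -0.19, adjusted p = 0.105). Its groups did not overlap. Yy1 had a log2 change of -0.21 (adjusted p = 0.147), with DMSO library 2 again among the TVA values. Without DMSO replicate 2, Mdh1 (log2 change 0.19, adjusted p = 0.0114), Myc (-0.23, 0.035) and Yy1 (-0.31, 0.00804) also passed the threshold.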

How the data were processed

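The authors deposited a table of TPM values per gene for 6 libraries, 3 DMSO and 3 TVA. The submitters' processing notes name STAR, RSEM and the build mm10, with versions and annotation not given in the sources used here. TPM keeps no read depth. All columns of libraries were mapped by their labels (0 not mapped). Genes with at least 1 TPM in at least 3 libraries (10866 of 24589) were tested on log2(TPM + 1), pseudocount 1, with limma 3.58.1 (trend) in R 4.3.3, in two-sided tests called at a Benjamini-Hochberg adjusted p under 0.05 across those genes. A fold change on this scale understates the change of low genes. Subunit ratios were tested by exact permutation over the 20 arrangements of the libraries. Members and lists were chosen with earlier results of these data known. Named were all members, the further cycle enzymes and, of each related list, the genes called or else the 2 of largest absolute change. Some genes of these lists are not reported here. Likeness was Pearson's r with the mean standardized profile of the members over 6 libraries. Gene positions came from GENCODE (GRCm38) and promoters from RefSeq. Alternatives were pseudocount 0.1, other filters, median-of-ratios and quantile scaling, no trend, a replicate block, GC correction (loess, span 0.5), a 1.5-fold minimum and leaving out each library. The scripts were tested on simulated data. Figures were drawn with matplotlib 3.10.9.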

Additional observations from a re-analysis of the deposited data

How the results depend on the processing

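None of the 9 enzymes was called under any other pseudocount, filter, scaling, variance model or GC correction, and the count ran from 0 to 2 when each library was left out in turn, the 2 (Cs and Ogdh) coming without DMSO replicate 2. For the further 7 cycle enzymes that range was 0 to 3, and for the related lists 0 to 11. The related lists gave 0 calls with all genes above 0 TPM, without the trend and with a replicate block, and 3 with GC correction. Over all genes the 925 calls became 494 with all genes above 0 TPM, 608 with a mean of at least 10 TPM, 88 with at least 1.5-fold, and 102 to 2242 when each library was left out. The causes were not tested. Same-numbered libraries did not deviate together (r = 0.157, 0.035 and -0.077 for replicates 1, 2 and 3), so the numbers were not taken as pairs, and a replicate block gave 218 calls over all genes (550 together with GC correction) and 0 of the 9 enzymes. Signs turned for changes near 0. The log2 change of Idh3b was -0.027 with median-of-ratios scaling, -0.016 with GC correction, with or without the block, and -0.025 to 0.046 on leaving out each library. That of Idh3g was -0.057 to 0.034 on leaving out each library, with 4.7e-05 without DMSO replicate 2 and 0.020 without TVA replicate 1. Mdh2 became -0.0073 and Sdhb -0.0074 with median-of-ratios scaling, and Dld -0.015 with GC correction, with or without the block. Acod1 ran from -0.082 to 0.059 on leaving out each library. The log2 difference of the Sucla2 to Suclg2 ratio was -0.018 with GC correction, an alternative for the ratios that was chosen after seeing the data, and ran from -0.0091 to 0.043 on leaving out each library. Of 429 alternative values for single genes, 399 kept their direction and side of the threshold. Depth is unknown, and 3 libraries a group limit the precision.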
